A study of Mus musculus with 240 samples.

Results

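The genes described here encode subunits of voltage-gated calcium and sodium channels, together with the gamma subunit relatives that act as partners of AMPA receptors. They were taken by name, as every gene of the deposited normalized table whose symbol begins with Cacna, Cacnb or Cacng, or is Scn followed by a number and a or b. The rule found 36 genes among 14785 tested, and 40 genes with such names among the 55414 of the count table. The 36 genes comprised 9 calcium channel alpha1 subunits, 4 alpha2delta subunits, 4 beta subunits, 7 gamma subunits or transmembrane AMPA receptor regulatory proteins (TARPs), 9 sodium channel alpha subunits and 3 sodium channel beta subunits. The other 4, Scn4a, Scn4b, Cacng1 and Cacna1f, were not among the tested genes, and their counts are given near the end of this section.

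Voltage-gated channels open when the membrane of a neuron depolarizes. The large alpha subunit forms the pore, sodium channels carry the upstroke of the action potential, and calcium channels turn depolarization into transmitter release, gene regulation and rhythmic firing. The alpha2delta and beta subunits carry calcium channels to the membrane and tune their gating, sodium channel beta subunits adjust gating and cell adhesion, and most TARPs traffic AMPA receptors to synapses.

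RNA was sequenced from tissue punches of 3 brain regions, the prelimbic cortex (PrL), the central amygdala (CeA) and the core of the nucleus accumbens (NAcc), taken from naive mice of the 8 inbred founder strains of the Collaborative Cross. These were C57BL/6J (B6), PWK/PhJ (PWK), A/J (AJ), 129S1/SvImJ (S129), NOD/LtJ (NOD), NZO/HILtJ (NZO), WSB/EiJ (WSB) and CAST/EiJ (CAST), each with 3 males and 3 females. NOD/LtJ is the spelling of the design text, and the paper of the study writes NOD/ShiLtJ. The design text gives an age of 8 weeks, and the methods of the study give older adults. The tested data held 143 libraries from 48 mice, with 6 libraries in every strain and region except B6 in the NAcc, where the authors removed 1 library and 5 remained. Libraries held from 14942820 to 33951616 gene counts (median 24456928), of which 83.7% to 89.8% were on tested genes. Levels below are given as CPM. These are the counts of a gene scaled to the total over the tested genes of its library, after the TMM normalization described below. Each strain is a single inbred genotype and all reads were aligned to 1 reference genome derived from B6, so that expression and alignment cannot be told apart in a difference between strains. In punches of mixed tissue, fewer cells of a type and less RNA per cell cannot be told apart either.

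The labelled regions were checked against marker genes. The mean level of 8 pallial glutamatergic markers was 5.54 to 7.25 (log2 CPM) in the PrL and had a median of 0.55 in the NAcc. The mean of 8 striatal markers had a median of 8.64 in the NAcc and of 3.94 in the PrL. The CeA held both, with striatal markers from 4.24 to 9.56 and pallial markers from 0.87 to 6.37, and none of these 16 genes was at 0 in any CeA library. The 6 central amygdala markers were at 3.57 to 5.83 in the CeA and overlapped those of the NAcc, at 2.42 to 5.65. Of all libraries, 4 PrL and 3 NAcc libraries lay more than 3 interquartile ranges from the quartiles of their region for striatal or pallial markers, among them PrL libraries of B6 mice 25 and 33 and of PWK mouse 40.

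Promoter sequences are shown for members at opposite ends of the family: a pair of alpha2delta genes whose region order was opposite, and the neighbouring sodium channel genes Scn10a and Scn11a, which both stood out in PWK. Each is the stretch of 250 bases before the RefSeq transcription start, in mouse build GRCm38.p6, read 5′ to 3′ on the strand of the gene, with copies of the GC box (GGGCGG on either strand) in capitals.
Cacna2d1, chr5:15934441-15934690, plus strand: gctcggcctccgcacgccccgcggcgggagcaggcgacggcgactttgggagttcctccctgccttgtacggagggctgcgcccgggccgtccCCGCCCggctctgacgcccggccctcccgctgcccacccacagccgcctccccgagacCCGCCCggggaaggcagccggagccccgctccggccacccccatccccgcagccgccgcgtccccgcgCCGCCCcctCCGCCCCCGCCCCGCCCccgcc
Cacna2d2, chr9:107399630-107399879, plus strand: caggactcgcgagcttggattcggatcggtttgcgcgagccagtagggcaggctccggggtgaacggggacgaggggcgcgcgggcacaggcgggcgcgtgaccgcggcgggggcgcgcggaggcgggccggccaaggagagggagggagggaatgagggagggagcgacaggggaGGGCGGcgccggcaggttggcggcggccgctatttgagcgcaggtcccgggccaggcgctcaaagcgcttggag
Scn10a, chr9:119719033-119719282, minus strand: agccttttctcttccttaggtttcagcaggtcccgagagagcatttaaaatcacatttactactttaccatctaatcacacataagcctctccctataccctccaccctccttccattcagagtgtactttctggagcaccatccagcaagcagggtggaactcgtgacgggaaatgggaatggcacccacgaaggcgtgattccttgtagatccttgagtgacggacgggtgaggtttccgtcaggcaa
Scn11a, chr9:119825457-119825706, minus strand: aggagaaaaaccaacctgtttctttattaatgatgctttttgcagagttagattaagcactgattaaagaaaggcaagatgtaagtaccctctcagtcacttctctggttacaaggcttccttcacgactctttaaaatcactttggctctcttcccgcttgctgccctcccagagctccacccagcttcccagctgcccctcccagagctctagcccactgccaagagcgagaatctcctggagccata
The Cacna2d1 window held 6 GC boxes and 82.4% G or C, and the Cacna2d2 window 1 GC box and 74.4%. The windows of Scn10a (49.6% G or C) and Scn11a (48%) held none of the 5 motifs searched. The set of RefSeq promoters used here held an entry for 27 of the 36 members, 38 promoters in all. Of these 38, 36.8% held a GC box, 21.1% a CCAAT box (CCAAT) and 5.26% a TATA box (TATAAA), against 32.7%, 33.8% and 12.4% of all 32851 promoters. Neither the cyclic AMP response element (TGACGTCA) nor the E-box (CACGTG) was in any member window, and they were in 1.55% and 6.02% of all windows.

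Most members were expressed well above the counting limit in all 3 regions, and a small group was nearly silent. A median of at least 50 CPM was reached in every region by 25 members, and 6 members stayed under 10 CPM everywhere. Levels between genes are compared only per kilobase of gene length (CPM per kilobase, with the exons of GENCODE M21 merged). On that scale auxiliary subunits were high: Scn2b, Cacng7 and Cacnb3 were among ranks 2 to 4 in the CeA and PrL, with medians of 83.4, 69.9 and 64.9 CPM per kilobase in the CeA. In the NAcc Cacnb3 fell to rank 6 (40.2 CPM per kilobase) and Cacnb1 was at rank 4 (43.5 CPM per kilobase). Among the sodium channel pores Scn2a, the channel of axon initial segments early in life and of excitatory neurons, was at 33.6 to 47.7 CPM per kilobase over the regions. Scn8a, which carries sustained firing in the mature brain, was at 20.6 to 34.3, and Scn1a, known from inhibitory interneurons and epilepsy, at 12.0 to 14.4. At the other end stood Cacna1s, the pore of skeletal muscle calcium channels, Cacna2d4 of photoreceptors, Cacng6 of muscle, Scn7a, a sodium-sensing channel relative, and Scn10a and Scn11a, the channels of peripheral sensory neurons. The whole set took 0.410% to 0.649% of the counts that a library had on tested genes.

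**Figure D1:**
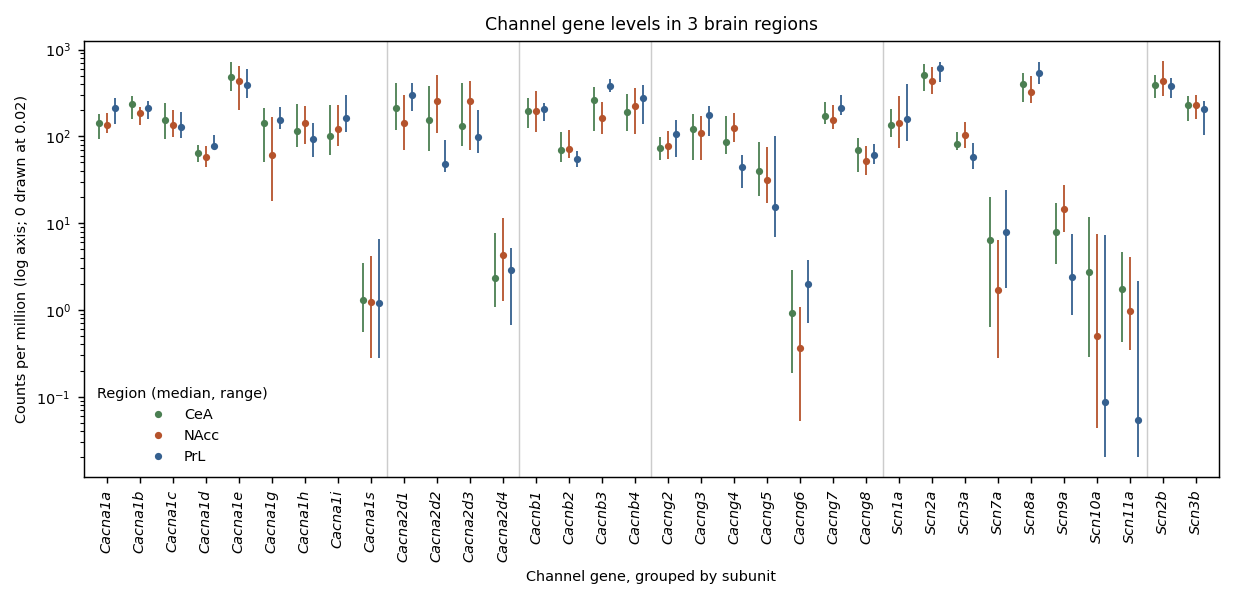
Level of 34 channel genes (x axis, grouped by subunit) in CPM on a log axis, with the median (point) and the range (line) over 48 CeA, 47 NAcc and 48 PrL libraries (0 is drawn at the bottom of the axis). The 24 genes drawn with a median of at least 50 CPM in every region form the upper band, and Scn9a, Scn10a and Scn11a have lower medians in the PrL than in the other regions.

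Region differences were tested with limma-voom over all 143 libraries, as the mean over the 8 strains, with sex and sequencing tray as covariates and Benjamini-Hochberg adjustment over all genes and the 3 comparisons. Between PrL and NAcc 33 of 36 members were called, 18 higher and 15 lower in the PrL, where 82.4% of all tested genes were called (38.4% higher and 44.1% lower). Between CeA and NAcc 30 were called (19 higher and 11 lower in the CeA, background 69.1%, 33.2% higher and 35.9% lower), and between CeA and PrL 33 (16 higher and 17 lower in the CeA, background 73.9%, 38.8% higher and 35.1% lower). In each comparison the share of members called was somewhat above that of all genes. The median absolute log2 difference between PrL and NAcc was 0.58 over the members and 0.26 over all tested genes, and it was 0.29 against 0.14 and 0.46 against 0.17 in the other comparisons. All 3 comparisons were called for 28 members (background 46.4%). The most frequent order was PrL over CeA over NAcc, with 13 members, followed by NAcc over CeA over PrL with 8.

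Of the 9 calcium channel pores, 5 were higher and 2 lower in the PrL than in the NAcc, and 2 were not called. Cacna1a, the P/Q-type pore of fast transmitter release, had a median of 210 CPM in the PrL against 143 in the CeA and 135 in the NAcc, and was higher in the PrL than in the NAcc by 0.59 ± 0.03 on the log2 scale (SE; limma-voom adjusted over all genes). The N-type pore Cacna1b and the R-type pore Cacna1e were highest in the CeA, by 1.23-fold and 1.26-fold over the NAcc. Of the L-type pores, Cacna1c was highest in the CeA (medians of 155, 135 and 128 CPM in CeA, NAcc and PrL), and Cacna1d in the PrL (64.8, 58.1 and 77.1 CPM). The 3 T-type pores, which open near rest and support burst firing, went different ways. Cacna1g had 17.9 to 166 CPM in the NAcc (median 60.6), 50.3 to 214 in the CeA (median 141) and 121 to 216 in the PrL (median 156), with a PrL over NAcc fold of 2.51. Cacna1h was instead highest in the NAcc (medians of 141 CPM there, 116 in the CeA and 93.8 in the PrL), and Cacna1i in the PrL (163 CPM against 123 in the NAcc and 100 in the CeA). Cacna1s had medians between 1.21 and 1.32 CPM and was called in none of the 3 comparisons.

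The alpha2delta subunits split, with 1 higher and 3 lower in the PrL than in the NAcc. Cacna2d2 and Cacna2d1 are both receptors of gabapentin and its relatives. Cacna2d2 ranged from 39.0 to 90.1 CPM in the PrL (median 48.5), from 66.9 to 384 in the CeA (median 153) and from 110 to 508 in the NAcc (median 254). The PrL and NAcc libraries did not overlap, as for 2.24% of all tested genes, and the fold was 4.72 lower in the PrL (log2 difference -2.24 ± 0.07). Cacna2d1 had the opposite order, with medians of 300 CPM in the PrL, 213 in the CeA and 141 in the NAcc, 2.15-fold higher in the PrL than in the NAcc. Cacna2d3, known from hearing and nociception, followed Cacna2d2, with medians of 256 CPM in the NAcc, 133 in the CeA and 98.3 in the PrL. Cacna2d4 was at 4.26, 2.31 and 2.91 CPM in NAcc, CeA and PrL, with a CeA minus NAcc log2 difference of -0.74 ± 0.08.

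Among the beta subunits, Cacnb3, a partner of N-type and other channels in the forebrain, was at 106 to 246 CPM in the NAcc (median 161) and at 324 to 460 in the PrL (median 382), without overlap of the libraries and with a fold of 2.35 (log2 difference 1.23 ± 0.04). The CeA lay between, at 116 to 366 CPM (median 260). Cacnb4, whose loss causes ataxia and seizures in mice, was 1.32-fold higher in the PrL than in the NAcc, Cacnb2 was 1.33-fold lower, and Cacnb1 had medians of 197 to 207 CPM and passed in no comparison.

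Of the gamma subunits and TARPs, Cacng2 (stargazin) and Cacng3 were highest in the PrL, by 0.43 ± 0.05 and 0.72 ± 0.06 over the NAcc on the log2 scale. Cacng4 ran the other way, from 25.5 to 61.4 CPM in the PrL (median 44.3), 62.5 to 172 in the CeA (median 87.1) and 86.1 to 185 in the NAcc (median 126). No PrL library overlapped with those of the NAcc or of the CeA (the latter as in 0.44% of all genes), and the PrL was 3.00-fold lower than the NAcc and 2.16-fold lower than the CeA. Cacng5 was highest in the CeA, with medians of 40.1, 31.3 and 15.2 CPM in CeA, NAcc and PrL. The PrL range of Cacng5 reached 99.5 CPM through 3 libraries, B6 mice 25 (99.5) and 33 (71.5) and AJ mouse 45 (69.5), while the other B6 PrL libraries were at 8.98 to 10.3 CPM. The B6 pair were among the libraries that stood apart on markers, with pallial markers at 5.54 and 5.88, and the part of this in the Cacng5 value was not tested. Cacng6 was scarce but strongly graded, at medians of 1.99 CPM in the PrL, 0.927 in the CeA and 0.366 in the NAcc (PrL over NAcc 4.99-fold, log2 difference 2.32 ± 0.15). Cacng7 and Cacng8, a major TARP of the hippocampus, differed by at most 1.33-fold between any pair of regions.

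All 9 sodium channel pores differed between PrL and NAcc, 4 higher and 5 lower in the PrL. Scn9a, a channel of sensory and sympathetic neurons that sets pain thresholds, had 0.869 to 7.54 CPM in the PrL (median 2.41), 3.39 to 17.0 in the CeA (median 7.87) and 7.81 to 27.4 in the NAcc (median 14.6). The PrL and NAcc libraries did not overlap, and the PrL was 5.53-fold lower (log2 difference -2.47 ± 0.10). Its neighbour on chromosome 2, Scn7a, had the reverse order, with medians of 7.89 CPM in the PrL, 6.45 in the CeA and 1.69 in the NAcc, and was 4.55-fold higher in the PrL than in the NAcc (log2 difference 2.19 ± 0.22). Scn10a had medians of 2.75, 0.503 and 0.0879 CPM in CeA, NAcc and PrL, and was 4.20-fold higher in the CeA than in the NAcc. Scn11a had medians of 1.74, 0.983 and 0.0532 CPM in the same order. PrL levels of Scn10a and Scn11a were at or near the limit that 3 counts set. That limit was 0.123 CPM over all counts at the median depth. On the scale of the levels it ran from 0.134 to 0.164 CPM by strain. The fitted PrL folds of these genes therefore depend on the prior count and are not given. The widely expressed pores moved less: Scn8a was 1.66-fold, Scn2a 1.39-fold and Scn1a 1.15-fold higher in the PrL than in the NAcc, and Scn3a, prominent in the embryonic brain, was 1.76-fold lower.

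Of the sodium channel beta subunits, Scn2b and Scn3b differed by 1.20-fold and 1.13-fold between PrL and NAcc, both lower in the PrL.

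**Figure D2:**
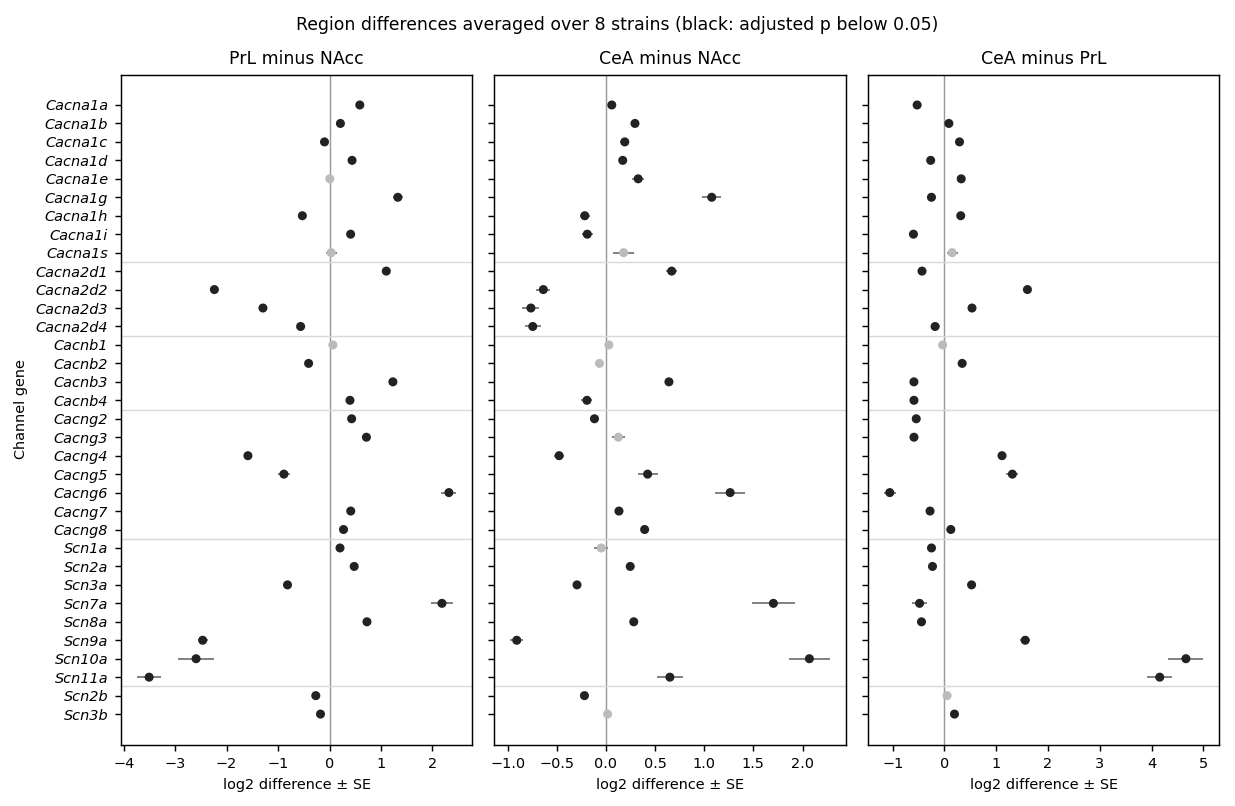
Region difference of 34 channel genes (y axis, grouped by subunit) as a log2 difference with its standard error (x axis), averaged over 8 strains, for PrL minus NAcc, CeA minus NAcc and CeA minus PrL. Black points passed an adjusted p of 0.05 (31, 28 and 31 of the 34 genes drawn); Scn9a lies at -2.47 in the PrL minus NAcc panel and Cacng6 at 2.32.

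Within the CeA, members followed the striatal and pallial content of the punch to different degrees, which is given as a description over 48 libraries that share depth and tissue composition. Cacna2d3 and Cacng4 had a Pearson correlation of 0.92 and 0.91 with the striatal marker level (Spearman 0.92 and 0.88), Cacnb4 of 0.81, and Cacna1g of -0.68. Cacna1b followed pallial markers at 0.77. Cacna2d2 had a correlation of 0.67 with striatal markers in the CeA and of -0.70 in the NAcc (n = 47), while Cacna2d3 had 0.97 there. Over the 24 strain and region means, the pairs of members most alike were Cacnb3 with Scn2a (r = 0.96) and Cacng4 with Scn3a (r = 0.96), and the most opposed pair was Cacnb3 with Cacna2d2 (r = -0.94). Members next to each other on a chromosome were not uniformly alike. Scn10a with Scn11a had r = 0.80, but Scn2a with Scn3a had r = -0.84 and Scn9a with Scn7a r = -0.66.

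Proteins that bind these channels were listed as well. Of 16 tested sodium channel partners, 7 were higher and 8 lower in the PrL than in the NAcc, with a median log2 difference of -0.15 (all tested genes -0.03). Fgf11, an intracellular fibroblast growth factor homologue, had a log2 difference of -1.39 ± 0.06 (19.9 against 51.0 CPM), and Fam155a, a subunit of the sodium leak channel complex, was higher by 1.39 ± 0.07. Of 16 calcium channel partners, 9 were higher and 4 lower in the PrL, with a median of 0.28. The release protein Stx1a led at 3.12 ± 0.09 (413 against 48.6 CPM), and Rem2, a small GTPase that inhibits calcium channels, lay at -3.00 ± 0.19. Of 12 AMPA receptor auxiliary proteins outside the Cacng genes, 4 were higher and 5 lower, with Olfm1 (2.45 ± 0.09) and Cnih3 (2.20 ± 0.10) at the top. Between CeA and NAcc the sodium channel partners had 8 higher and 7 lower, the calcium channel partners 10 and 6, and the AMPA receptor proteins 6 and 3. Between CeA and PrL the counts were 7 and 5, 3 and 10, and 5 and 4. Of all tested genes, 82.4% were called between PrL and NAcc, 69.1% between CeA and NAcc and 73.9% between CeA and PrL.

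Strains were then compared within each region, with the same covariates. An F test over the 8 strains was called for 27 members in the CeA (80.7% of all genes), 21 in the NAcc (75.9%) and 29 in the PrL (84%). With sample quality weights it was called for 33, 36 and 32 members (89.3%, 91.4% and 85.8% of all genes), and with marker levels as covariates for 34 in the NAcc (81.1%), so whether the share of members lay below or above that of all genes depended on the fit. In the 28 pairwise strain contrasts, members took 214 of 1008 possible calls in the CeA (21.2%, background 28.8%), 179 in the NAcc (17.8%, background 26%) and 250 in the PrL (24.8%, background 33.1%). The F test was called in all 3 regions for 15 members and in no region for Cacng7. All 4 alpha2delta subunits were called in the CeA and NAcc, and 3 of 4 in the PrL. Of the TARPs 4 of 7 were called in the CeA, 2 of 7 in the NAcc and 5 of 7 in the PrL. As a description of where the variation lay, the region share of the variance exceeded the strain share in 30 members. The exceptions were Cacna1s (57.1% strain, 0.7% region), Cacna2d4 (46.5% and 20.2%), Scn2b (44.0% and 19.5%), Scn3b, Cacnb1 and Scn1a.

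**Figure D3:**
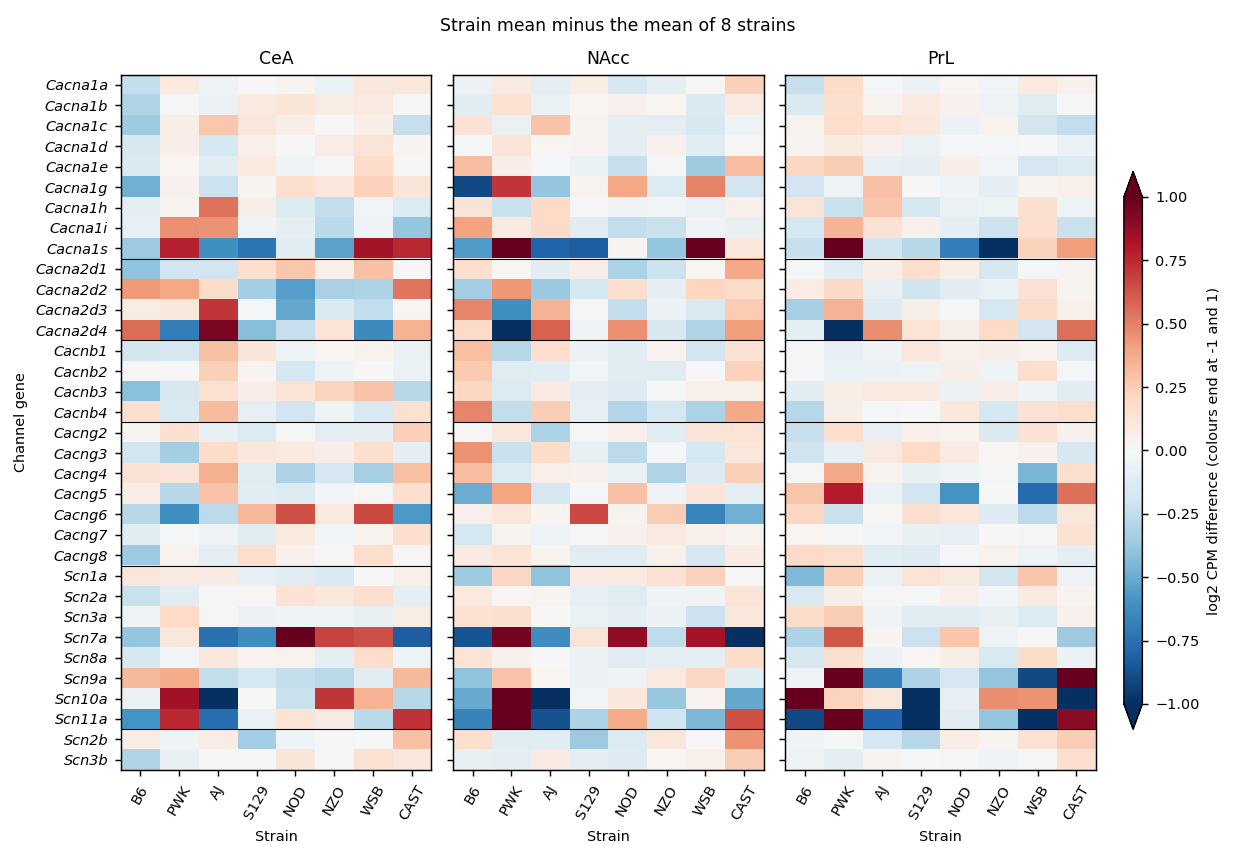
Mean log2 CPM of each strain minus the mean of the 8 strains (colour, red higher and blue lower, ending at -1 and 1) for 34 channel genes (y axis) and each strain (x axis) in the CeA, NAcc and PrL. PWK is red for Cacna1s and Scn11a and blue for Cacna2d4 in all 3 regions, and most rows of widely expressed genes are pale.

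A unique DEG, a gene called between 1 strain and each of the other 7 in the same direction, was found 13 times over 9 members: 3 members in the CeA (19.2% of all genes were a unique DEG of some strain), 4 in the NAcc (17.7%) and 5 in the PrL (27%). PWK had 6 of the 13, 3 in the NAcc, 3 in the PrL and 0 in the CeA, where 6.30%, 9.04% and 5.57% of all tested genes were unique DEGs of PWK. CAST, with 6.29%, 10.0% and 6.25% in the same order, had 1 member in the NAcc and 0 in the PrL and CeA.

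Scn11a was up-expressed in PWK. In the PrL the 6 PWK libraries were at 1.67 to 2.18 CPM (median 1.84, 29 to 43 counts), and the 42 others between 0 and 0.329 CPM (median 0.0475, at most 7 counts), so that the groups did not overlap. In 5 of the other strains no library had more than 3 counts, which makes the PWK mean at least 11.9-fold higher than the largest limit of 3 counts per library among those strains. The least significant of the 7 contrasts had an adjusted p of 1.3e-10 (limma-voom, all genes and contrasts). In the NAcc PWK was at 2.57 to 4.05 CPM (median 2.81) and the others at 0.345 to 2.25 (median 0.867), again without overlap, with a mean fold of 3.21 and a largest adjusted p of 0.0070. With marker levels as covariates the call was lost (largest adjusted p 0.15), and the mean log2 difference was 1.45 against 1.68. In the CeA PWK was at 1.67 to 4.36 CPM and CAST at 1.88 to 4.13, and no unique call was made. The study kept genes by their mean CPM across samples, PWK included, and the PWK libraries raised the mean of this scarce gene. The place of Scn11a among the tested genes, and so its unique calls, was not independent of its level in PWK.

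Scn10a, which lies next to Scn11a, was a unique DEG of PWK in the NAcc. Its PWK libraries likewise raised its mean in the filter of the study. The PWK libraries were at 0.955 to 7.41 CPM (median 3.74), and the 41 others at 0.0431 to 1.80 (median 0.477), with 4 of 6 PWK libraries above all others, a mean fold of 6.18 and a largest adjusted p of 0.0012. In the PrL, 5 PWK libraries were at 0 to 0.122 CPM (0 to 2 counts) and the library of mouse 40 was at 7.21 CPM (162 counts). The PrL difference with the widest span for this gene, B6 over S129, rested on low counts: B6 libraries were at 0.0392 to 1.49 CPM, with the top value from mouse 33, and S129 had no counts.

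Cacna1s was a unique DEG of PWK in the PrL, where PWK was at 2.94 to 6.53 CPM (median 4.79) and the 42 others at 0.283 to 4.11 (median 1.06), a mean fold of 3.91 with a largest adjusted p of 0.00037. Of the PWK libraries, 4 of 6 lay above all others. In the NAcc PWK (2.34 to 4.21 CPM) and WSB (2.63 to 4.13 CPM) both lay above every library of the other 6 strains, the highest of which was at 2.25 CPM, and in the CeA PWK, WSB and CAST had means of 2.60, 2.67 and 2.55 CPM against 0.931 in S129.

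Cacna2d4 was down-expressed in PWK, in the NAcc (1.28 to 2.56 CPM against 2.44 to 11.4 in the 41 others) and in the PrL (0.667 to 2.02 against 1.79 to 5.23). In each region 5 of 6 PWK libraries lay below all others, and the mean folds were 2.50 and 2.42 lower, with largest adjusted p of 0.0032 and 0.00040. In the CeA AJ had the highest mean, 5.05 ± 2.07 CPM (SD, n = 6), and PWK the lowest, 1.53 ± 0.340, a fold of 3.08.

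Scn2b was the member with unique calls in opposite directions. In the NAcc CAST was at 537 to 746 CPM (median 602), above most of the 41 others (290 to 581, median 432), with a mean fold of 1.43 and a largest adjusted p of 0.0087. S129 was lowest, at 290 to 390 CPM (median 352), 1.33-fold below the others (largest adjusted p 0.038). In the CeA S129 was again lowest, at 276 to 392 CPM (median 277) against a median of 395 in the 42 others, a mean fold of 1.31 lower (largest adjusted p 0.022). With marker levels as covariates both NAcc calls were lost, with a mean log2 difference of 0.40 against 0.52 for CAST (largest adjusted p 0.064) and of -0.37 against -0.41 for S129 (0.073). The S129 call in the NAcc was also lost at the same difference when calls were adjusted within each contrast (0.081).

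The remaining unique DEGs were smaller. In the CeA Cacna1h was up-expressed in AJ, at 123 to 236 CPM (median 182) against 75.7 to 185 (median 114) in the others, a mean fold of 1.54. Scn3b was down-expressed in CeA punches of B6, at 151 to 213 CPM (median 204) against 187 to 291 (median 239). AJ also had the highest mean of striatal markers in the CeA (8.07 log2 CPM), and B6 and AJ the lowest of pallial markers (4.10 each). With marker levels as covariates, neither call remained (largest adjusted p 0.067 for Cacna1h and 0.31 for Scn3b). In the PrL Cacna1g was 1.26-fold higher in AJ, at 163 to 216 CPM against 121 to 182, and Cacng4 was 1.44-fold lower in WSB, at 25.5 to 37.1 CPM against 33.4 to 61.4, with largest adjusted p of 0.015 and 0.00046.

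**Figure D4:**
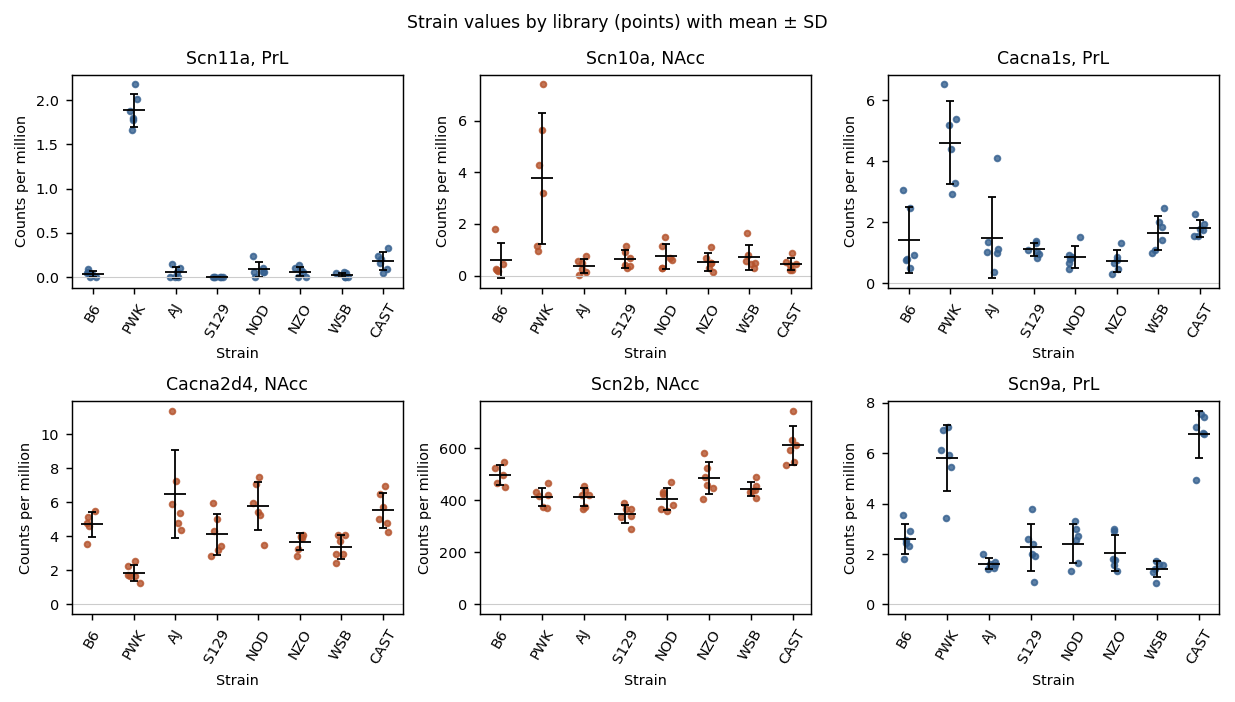
CPM of single libraries (points, y axis) with mean ± SD (black) by strain (x axis) for Scn11a, Cacna1s and Scn9a in the PrL and Scn10a, Cacna2d4 and Scn2b in the NAcc; n = 6 libraries a strain, 5 for B6 in the NAcc. The PWK points of Scn11a sit between 1.67 and 2.18 CPM, above all others, and CAST and PWK are the high strains of Scn9a.

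Some strain spans were wide without setting 1 strain apart. In the PrL Scn9a was at 4.93 to 7.54 CPM in CAST and 3.43 to 7.04 in PWK, while WSB was at 0.869 to 1.73, and CAST exceeded WSB by 2.25 ± 0.22 on the log2 scale (4.76-fold, adjusted p 2.7e-11). Scn7a was lowest in CAST in both the CeA and the NAcc, with means of 4.14 and 0.933 CPM. The highest strains were NOD in the CeA (12.7 ± 4.44 CPM, SD) and PWK in the NAcc (3.57 ± 1.73 CPM, SD). The CeA difference of Scn7a between NOD and CAST was 1.98 on the log2 scale and 0.85 with marker levels as covariates, where it was no longer called (adjusted p 0.15).

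The other wide spans involved the scarce channels. In the CeA Scn10a was at 1.30 to 11.8 CPM in PWK and 0.286 to 1.82 in AJ, overlapping ranges with a log2 difference of 2.14 ± 0.48 (limma-voom adjusted p 0.00062). Scn11a differed between the same strains by 1.52 ± 0.46, and Cacna1s by 1.54 ± 0.24 between WSB and S129. In the NAcc PWK exceeded AJ by 3.28 ± 0.60 for Scn10a and by 2.34 ± 0.28 for Scn11a, S129 by 2.04 ± 0.26 for Cacna1s and CAST by 1.95 ± 0.50 for Scn7a, all on the log2 scale. In the PrL PWK exceeded NZO by 2.73 ± 0.37 for Cacna1s, and CAST exceeded PWK by 1.68 ± 0.20 for Cacna2d4.

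B6 and PWK, the strains that the study groups as high in ethanol preference, were each compared with the mean of the other 6 strains (Low_Average). In the CeA B6 differed in 16 members, 3 higher and 13 lower, where 41% of all genes were called, 22.3% higher and 18.7% lower. The 13 included Cacna1a, Cacna1b, Cacna1c, Cacna1d, Cacna1g, Cacna2d1, Cacnb1, Cacnb3, Cacng8, Scn2a, Scn3b and Scn8a, with log2 differences of -0.17 to -0.55, and the 3 were Cacna2d2, Cacna2d4 and Scn9a. The median over the members was -0.17 and over all tested genes 0.01. The mean level of the 8 pallial markers in the CeA was 4.10 in B6, and 4.10 in AJ, 4.41 in PWK and 5.26 in S129, while the 6 oligodendrocyte markers had a mean of 9.73 in B6, the highest of the strains, and of 7.58 to 8.69 in the others. With striatal, pallial and oligodendrocyte marker levels as covariates, 5 members were lower and 0 higher in B6 in the CeA, against 13.5% and 14.3% of all genes. In the NAcc B6 differed in 9 members (5 higher and 4 lower, background 32.1%) and in the PrL in 14 (4 higher and 10 lower, background 37.6%). Without the libraries that stood apart on markers, the NAcc had 1 higher and 1 lower, and the PrL 5 higher and 4 lower. That run left out B6 mice 25 and 33 in the PrL and B6 mouse 33 in the NAcc, so B6 itself had fewer libraries there. The counts of B6 calls summed over the regions were 39 in all libraries, 27 without the libraries that stood apart on markers and 31 with marker levels as covariates. The counts of that run and these sums are given without the share of all genes, and are not set against it.

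Cacna1g was lower in B6 in all 3 regions (4.8% of all genes were so called), and 0 members were higher in all 3 (6.08%). It was at means of 99.4, 35.7 and 137 CPM in B6 and 143, 70.4 and 162 CPM in Low_Average, in CeA, NAcc and PrL, with log2 differences of -0.55 ± 0.19, -0.98 ± 0.32 and -0.23 ± 0.06 (limma-voom adjusted p 0.021, 0.015 and 0.0019). In the NAcc the call was lost without B6 mouse 9 (adjusted p 0.072), without B6 mouse 17 (0.087) and with the library that the authors removed added back (0.099), and in the CeA with marker levels as covariates (0.45).

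PWK differed from Low_Average in 11 members in the CeA (7 higher and 4 lower, background 39.3%), 9 in the NAcc (7 and 2, background 38.7%) and 17 in the PrL (15 and 2, background 47%). In the PrL 23.9% of all genes were called higher and 23.1% lower. The PrL members higher in PWK included the pores Cacna1a, Cacna1b, Cacna1c, Cacna1e, Cacna1i, Scn3a and Scn9a and the TARPs Cacng4, Cacng5 and Cacng8. Scn9a was at 1.26 and Cacng5 at 0.96 on the log2 scale. The PrL library of PWK mouse 40 stood apart on markers, with striatal markers at 7.54 log2 CPM against a region median of 3.94. Its part in the 15 calls is not given here, and its part in the Scn9a and Cacng5 values was not tested. In all 3 regions PWK was higher for Cacna1s, Cacna2d2 and Scn11a, and lower for Cacna2d4 (11.1% and 11.2% of all genes were so called). The log2 difference of PWK from Low_Average for Cacna1s was 1.97 ± 0.21 in the PrL, 1.34 ± 0.16 in the NAcc and 0.85 ± 0.16 in the CeA. For Cacna2d2 it was 0.24 ± 0.09, 0.44 ± 0.16 and 0.52 ± 0.19 in the same order, and the PrL value was 0.09 (adjusted p 0.14) without the libraries that stood apart and the CeA value 0.28 (0.060) with marker levels as covariates. For Scn11a the CeA difference, 0.77 ± 0.31, was not called by edgeR (adjusted p 0.089) or DESeq2 (0.092).

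Whether region differences depended on strain was tested with 14 interaction terms in 1 model. The interaction was called for 21 of 36 members, against 32.7% of all genes, among them all 4 alpha2delta and all 4 calcium channel beta subunits, but 3 of 9 sodium channel pores and 1 of 3 sodium channel beta subunits. Within single strains, members took 529 calls between regions (background 40.1% of all gene and contrast pairs).

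Scn9a had the smallest interaction p (adjusted p 8.3e-08). The PrL was lower than the NAcc in every strain, with log2 differences of -3.58 ± 0.31 in WSB and -3.17 ± 0.30 in AJ, but -1.65 ± 0.20 in PWK and -1.01 ± 0.20 in CAST. Scn11a followed (adjusted p 1.7e-05). In PWK neither contrast with the PrL was called, with log2 differences of -0.64 ± 0.30 for PrL minus NAcc and 0.58 ± 0.30 for CeA minus PrL, and in the other 7 strains both contrasts were called.

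The other 3 interactions are given as CeA minus NAcc differences, though the test took in all 3 regions. For Cacng8, B6 was the lowest strain in the CeA and the highest in the PrL. For Cacna2d2, B6 was the lowest strain in the NAcc. Cacnb3 (adjusted p 0.00047) was higher in the CeA than in the NAcc by 0.62 to 0.91 in 6 strains, by 0.31 ± 0.12 in CAST and by 0.01 ± 0.13 in B6. Cacng8 (adjusted p 0.00021) had a CeA minus NAcc difference of -0.06 ± 0.11 in B6 and of 0.28 to 0.73 in the others. Cacna2d2 (adjusted p 0.00065) had a CeA minus NAcc difference of -1.35 ± 0.20 in NOD and -1.16 ± 0.20 in WSB, and B6 (0.13 ± 0.21), AJ (-0.08 ± 0.20) and CAST (-0.28 ± 0.21) were not called. Markers of CeA punches also varied between strains. The share of their variance among CeA libraries that lay between strains was 34.7% for striatal, 31.4% for pallial, 42.2% for oligodendrocyte, 46.0% for astrocyte and 53.0% for endothelial and mural cell markers, and their part in these interactions was not tested.

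**Figure D5:**
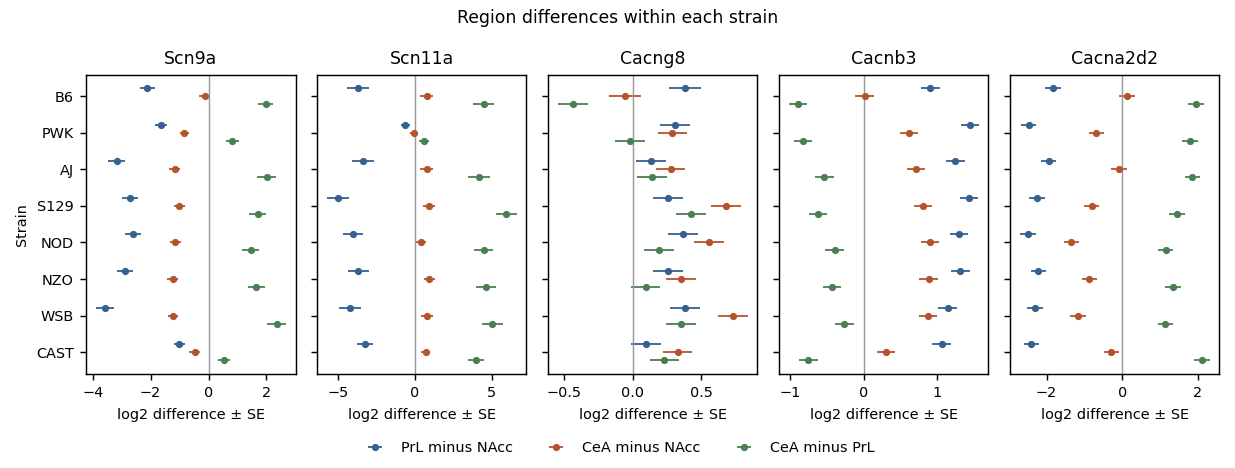
Region difference within each strain (y axis) as a log2 difference with its standard error (x axis) for the 5 channel genes with the smallest interaction p: PrL minus NAcc (blue), CeA minus NAcc (orange) and CeA minus PrL (green). For Scn9a the PrL minus NAcc difference runs from -3.58 in WSB to -1.01 in CAST, and for Scn11a the PWK points lie nearest 0.

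Males and females were not found to differ for any member. The limma-voom test called 0 members in each region, with 1, 3 and 3 members at an unadjusted p under 0.05 in the CeA, NAcc and PrL, and edgeR and DESeq2 also called 0. Among all genes 20, 12 and 14 were called (0.135%, 0.0812% and 0.0947%). The smallest adjusted p of a member was 0.41.

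Of the 4 genes of the same names that were not in the tested table, Scn4b, the beta subunit linked to resurgent sodium current, was abundant. It had 5.60 to 2383 CPM in the CeA (median 126), 52.4 to 3000 in the NAcc (median 733) and 30.2 to 697 in the PrL (median 67.3), and up to 56345 counts in a library. The authors also removed genes with a count above a set limit in any 1 sample, and the highest count of Scn4b exceeded that limit. When the 4 genes were added to the fit, Scn4b was 9.31-fold lower in the PrL than in the NAcc (log2 difference -3.22 ± 0.29) and 5.62-fold lower in the CeA. Cacng1, a muscle channel subunit, had medians of 0.272, 0.645 and 0.120 CPM in CeA, NAcc and PrL, Cacna1f of the retina 0.101, 0.1003 and 0.203, and Scn4a of skeletal muscle 0 in each region, with at most 6 counts in a library.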

How the data were processed

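RNA was sequenced from CeA, NAcc and PrL punches of 48 mice. Per the labels and the methods of the study, the authors checked reads with FastQC, trimmed them with Trimmomatic, aligned them with STAR 2.7.3a to GRCm39 (annotation Ensembl 105) and deposited raw read counts per gene. The sources also name mm10, and the strand setting of the counts is not given in the sources used here. The authors also deposited log2 CPM values for the 14785 genes kept after their filters (edgeR 3.38.1, limma 3.52.2). Per the methods of the study, these dropped genes with low counts, genes with a very high count in any 1 sample, and non-chromosomal genes. Sequencing trays 2 and 3 were run more than once, so the count table held 240 library columns, of which 143 were used, 1 per mouse and region. Libraries held 14942820 to 33951616 counts. The limit of 3 counts was 0.123 CPM at the median depth, taken over all counts of a library. On the scale of the levels, the limit by strain in the PrL ran from 0.134 (B6) to 0.164 CPM (PWK). The limit covers counting error only.

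Counts of the 14785 genes were normalized with TMM and fitted with limma-voom (R 4.3.3, limma 3.58.1, edgeR 4.0.16), which matched the deposited log2 values within 5e-06. Strains were compared within each region with sex and tray as covariates, and p-values were adjusted by the Benjamini-Hochberg method over all genes and 28 contrasts at a threshold of 0.05. Regions were compared in 1 model of all libraries with strain and region combined. Alternatives included the edgeR quasi-likelihood test, DESeq2 1.42.0, other normalizations and filters, and leaving out each B6 NAcc library. Scripts were tested on simulated data.

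The labels give the same mouse in each region, which pairs the libraries. The median correlation of deviations within a mouse was -0.0041 for PrL and NAcc, 0.056 for CeA and NAcc and 0.018 for CeA and PrL. Members are named with their levels, except some that are counted among the 36 but not reported here. Given in full, with the same exception, are the 5 members with the largest absolute difference per region contrast, the 5 with the widest strain span per region, all unique DEG members, those called in all 3 regions against Low_Average, the 5 with the smallest interaction p and at most 3 genes per partner list. Members, lists and tests were chosen with earlier results of these data known. Promoters are from RefSeq (GRCm38.p6), a build other than that of the counts. Each strain and region group held samples of separate mice.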

Additional observations from a re-analysis of the deposited data

Results flagged for a closer look

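In 4 of the 34 sets of libraries tested, each of 1 gene in 1 strain and region, 1 library lay apart from the others by more than the critical share of the range of the set in Dixon's test at the 95% level, which chance gives in about 1 in 20 sets. Scn10a in the PrL of B6 was at 1.49 CPM in mouse 33 and next at 0.458, a gap of 0.711 of the range. Scn11a in the NAcc of AJ was at 0.969 CPM in mouse 45 and next at 0.565 (0.726). Scn11a in the NAcc of PWK was at 4.05 CPM in mouse 24 and next at 3.08 (0.658). Scn9a in the PrL of CAST was at 4.93 CPM in mouse 36 and next at 6.74 (0.695).

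Region differences depended on strain for 21 of 36 members by the interaction test of limma-voom, which called 32.7% of all genes. The adjusted p was 8.27e-08 for Scn9a, 1.71e-05 for Scn11a, 0.000212 for Cacng8, 0.000472 for Cacnb3 and 0.000651 for Cacna2d2.

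Among the genes of the same names that were not in the tested table, 3 had medians above the limit of 3 counts. The limit was 0.123 CPM over all counts at the median depth. The medians were 733 CPM in the NAcc for Scn4b, 0.645 CPM in the NAcc for Cacng1 and 0.203 CPM in the PrL for Cacna1f.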

How the results depend on the processing

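No log2 difference recomputed changed sign under any alternative run. With sample quality weights in voom, member calls in the 28 strain contrasts were 327 in the CeA and 377 in the NAcc, the strain F test in the NAcc was called for 36 members and the interaction for 33 (68.3% of all genes), and unique DEG members were 6 in the CeA and 8 in the NAcc. The interaction was called for 32.7% of all genes in the main fit, so calls rose over all genes as well. The counts with weights are therefore not comparable with the shares of all genes in the main fit. With a mean of at least 5 CPM required, unique DEG members were 1 in the NAcc and 2 in the PrL, as fewer members were tested. With marker levels as covariates, an alternative chosen after seeing the data, the strain F test in the NAcc was called for 34 members and unique DEG members in the PrL were 8. The cause of the other shifts was not tested.

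Leaving out each B6 NAcc library in turn gave 159 to 198 member calls in the NAcc, 18 to 22 members by the strain F test there, 18 to 22 by the interaction, 32 to 41 calls of B6 against Low_Average (32 without mouse 33), 37 to 38 of PWK, 29 to 30 between CeA and NAcc, 32 to 33 between PrL and NAcc and 526 to 530 within strains. With mouse as a replicate block (correlation 0.0476), the calls were 33 for PrL and NAcc, 31 for CeA and NAcc, 33 for CeA and PrL, 545 within strains and 22 for the interaction.

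Of 63 single values recomputed, 12 lost their call under at least 1 alternative, 23 times in all. Besides those given above, these were Scn2b in S129 without a filter on low counts (adjusted p 0.069 in the CeA and 0.063 in the NAcc) and without the libraries that stood apart (0.054 in the NAcc), Scn3b in B6 with quality weights (0.29) and Scn11a in PWK in the CeA (0.064 to 0.092 over 6 alternatives). DESeq2, TMM within regions, adjustment within contrasts and marker covariates were run for the strain fits only, and the block for the fit of all libraries only. Depth limits Scn10a and Scn11a in the PrL, where most libraries held few counts.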
